A study of Homo sapiens with 36 samples.

Results

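A set of 3 microRNAs (miRNAs) known for their part in inflammatory signalling, hsa-miR-146a-5p, hsa-miR-146b-5p and hsa-miR-155-5p, was followed through small RNA sequencing of human cells that had gained a whole chromosome. They were chosen by name and are 3 of the 509 miRNA names in 7 tables. Each table holds 1 aneuploid line with its control, and each line and each control was sequenced as 3 libraries. The question behind the series is which miRNAs differ once a cell carries an extra chromosome. Of the lines, 4 derive from HCT116, a near diploid human colon carcinoma line with a modal number of 45 chromosomes, and 3 from RPE1, a human retinal pigment epithelial line immortalised with telomerase, with a modal number of 46.

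HCT116 5/4 carries 4 copies of chromosome 5 and was set against HCT116. HCT116 18/3 c2, HCT116* 3/3 c11 and HCT116* 8/3 c7 carry 3 copies of chromosomes 18, 3 and 8, and were all set against the same 3 libraries of HCT116*, where the asterisk marks cells that carry histone H2B fused to GFP. The name HCT116 18/3 c2 bears no asterisk, although its control does. RPE1 5/3 12/3 carries 3 copies of chromosomes 5 and 12 and was set against RPE1. RPE1* 7/3 and RPE1* 21/3 carry 3 copies of chromosomes 7 and 21 and were each set against a set of RPE1* libraries of their own. RPE1* 7/3 had also gained chromosomes 9 and 12 spontaneously. The lines with a gained chromosome were made by chromosome transfer or obtained as such, c marks a clone, and all cells were grown without a treatment given in the labels.

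miRNAs are short RNAs cut from hairpin precursors that guide a silencing complex to mRNAs, mostly through the seed, bases 2 to 8 from the 5′ end. miR-146a and miR-155 are induced by NF-kB and Toll-like receptor signalling, and miR-146a and miR-146b act back on it by repressing the adaptors IRAK1 and TRAF6. miR-155 is processed from the BIC transcript, is abundant in activated immune cells and represses the phosphatase SHIP1 and the cytokine signalling inhibitor SOCS1. These are background facts and were not measured here.

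The mature sequences are shown because the pair of miR-146 forms is nearly identical and shares 1 seed, which bears on how their reads can be told apart. They are taken from RefSeq, 5′ to 3′, with the seed in capitals.
hsa-miR-146a-5p: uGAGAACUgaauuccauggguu
hsa-miR-146b-5p: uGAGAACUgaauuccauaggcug
hsa-miR-155-5p: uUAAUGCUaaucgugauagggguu
All 3 members matched a RefSeq entry. Counting positions from 1 at the 5′ end, miR-146b differs from miR-146a by G18A and U21C, and it is 1 base longer, at 23 against 22 bases. The first 17 bases are the same, and 20 of the 22 compared positions agree. The seed GAGAACU is carried by 3 RefSeq mature miRNAs, of which hsa-miR-146a-5p and hsa-miR-146b-5p had rows in these tables. The seed UAAUGCU of hsa-miR-155-5p, which is 24 bases long, is carried by no other mature miRNA of the RefSeq table used.

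Each mature sequence has 1 exact match in GRCh37, the assembly called hg19 in the processing notes. hsa-miR-146a-5p lies on the plus strand at chr5:159912379-159912400, in exon 2 (159912306-159914433) of the long noncoding RNA gene MIR3142HG (159865601-159914433), and the nearest coding gene is PTTG1, 56633 bases away. hsa-miR-146b-5p lies on the plus strand at chr10:104196277-104196299, inside its own hairpin gene MIR146B (104196269-104196341) and in no other annotated gene, 3936 bases from CUEDC2. hsa-miR-155-5p lies on the plus strand at chr21:26946295-26946318, in the last exon (26946205-26947480) of the long noncoding RNA gene MIR155HG (26934122-26947480), which is exon 4 of one transcript and exon 3 of another. So miR-146a sits on a gained chromosome in HCT116 5/4 and RPE1 5/3 12/3, miR-155 in RPE1* 21/3, and miR-146b in none of the 7 lines.

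The value used for each miRNA is the deposited mean of its normalised read count over all 6 libraries of a table, 3 of the line and 3 of its control. Line and control cannot be told apart in such a mean, no value per library was analysed here, and so no mean has an SD and no difference a test. Because the tables were normalised separately, levels set across them are given in ppm (parts per 1000000) of a table's summed means, which ranged from 5556870 to 11221232. The tables held 273 to 434 miRNAs each, mostly 5p arms (333 of the 509 names end in 5p and 12 in 3p), and a level is relative to these rows. The lowest mean in a table was 1.10 to 4.67 in 6 tables and 11.9 in that of HCT116* 3/3 c11, and a missing row was read neither as 0 nor as any level, since why rows are missing was not tested.

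The cell type labels were checked against marker miRNAs. The summed level of 7 markers of colon epithelium was 2018 to 3155 ppm in the HCT116 tables and 192 to 251 ppm in the RPE1 tables, where hsa-miR-200b-5p, hsa-miR-200c-5p and hsa-miR-141-5p had no row. hsa-miR-204-5p, a marker of retinal pigment epithelium, was at most at 4.50 ppm in the HCT116 tables. In the RPE1 tables it was at 380 to 1450 ppm. The colon sum and hsa-miR-204-5p thus went with the labels, but not every single marker did. The level of hsa-miR-194-5p overlapped, at 3.93 to 24.5 ppm in RPE1 tables and 16.3 to 139 ppm in HCT116 tables. That of hsa-miR-215 did too, at 4.64 to 7.97 ppm against 5.71 to 23.8 ppm. The other pigment epithelium marker, hsa-miR-211-5p, was at 0.556 ppm for RPE1 5/3 12/3 and 1.98 ppm for RPE1* 7/3, with no row for RPE1* 21/3. Of the HCT116 tables, only that of HCT116* 8/3 c7 had a row for it, at 0.301 ppm. Of 4 blood cell markers, none had a row in the RPE1 tables and 2 had one in an HCT116 table, the highest being hsa-miR-142-5p at 38.6 ppm in the table of HCT116 5/4. No 3p arm of these markers had a row, and their missing rows do not show that such cells were absent. The summed level of 4 mesenchymal markers was 145 to 269 ppm in HCT116 and 9.01 to 114 ppm in RPE1 tables.

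hsa-miR-146b-5p was by far the more abundant miR-146 form, and it was moderately abundant in every table. Its mean was 2666 in the table of HCT116 5/4, 5407 in that of HCT116 18/3 c2, 5881 in that of HCT116* 3/3 c11 and 6274 in that of HCT116* 8/3 c7. In the RPE1 tables it was 2926 for RPE1 5/3 12/3, 4726 for RPE1* 7/3 and 2499 for RPE1* 21/3. In ppm, the order was HCT116* 8/3 c7 (800), HCT116 18/3 c2 (680), HCT116* 3/3 c11 (657), HCT116 5/4 (480), RPE1* 7/3 (421), RPE1 5/3 12/3 (321) and RPE1* 21/3 (310). Every HCT116 table lay above every RPE1 table on this scale, and the highest was 2.58 times the lowest. The 3 tables that share the HCT116* libraries were within 1.22 times of each other, which says little about independent samples because those controls make up the same part of each mean. hsa-miR-146b-5p ranked between place 38 and place 54 in its tables, with 82.8 to 91.2% of a table's rows below it. Whether neighbours in this order differ beyond the spread of libraries could not be tested.

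hsa-miR-146a-5p was a low-level miRNA, below the median level of each of the 6 tables where it had a row. Its mean was 41.7 in the table of RPE1 5/3 12/3, 16.5 in that of HCT116* 8/3 c7, 15.5 in that of HCT116* 3/3 c11, 15.0 in that of HCT116 18/3 c2, 11.04 in that of RPE1* 7/3 and 3.48 in that of HCT116 5/4. It had no row in the table of RPE1* 21/3, whose lowest mean was 4.67. In ppm, in the same order, these are 4.58, 2.10, 1.73, 1.88, 0.984 and 0.626. Among the 6 tables with a row, that of RPE1 5/3 12/3 was the highest and that of HCT116 5/4 the lowest, 7.31 times apart, and both lines have extra copies of chromosome 5, where miR-146a is encoded. The other 4 tables with a row lay between 0.984 and 2.10 ppm, and the place of RPE1* 21/3 is unknown. Of the rows of a table, 38.7 to 41.5% lay below hsa-miR-146a-5p in 4 tables, 6.45% in that of HCT116* 3/3 c11, which has the highest minimum, and 6.15% in that of HCT116 5/4. A mean of 3.48 over 6 libraries rests on few reads per library, so the low values carry a large counting error, which cannot be given without the counts.

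hsa-miR-155-5p was abundant in every RPE1 table and had a row in 1 of the 4 HCT116 tables. Its mean was 10579 in the table of RPE1 5/3 12/3, 20294 in that of RPE1* 7/3 and 9902 in that of RPE1* 21/3, or 1161, 1809 and 1229 ppm. That HCT116 row, in the table of HCT116 5/4, had a mean of 4.65 (0.837 ppm). It had no row in the other 3, whose lowest means were 2.34 (HCT116 18/3 c2), 11.9 (HCT116* 3/3 c11) and 2.14 (HCT116* 8/3 c7). The HCT116 table with a row did not come near any RPE1 table. In RPE1 tables it was among the more abundant miRNAs, at place 24 of 297, 17 of 403 and 24 of 273, while in the table of HCT116 5/4 it stood at place 321 of 358. The highest RPE1 table was 1.56 times the lowest.

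**Figure D1:**
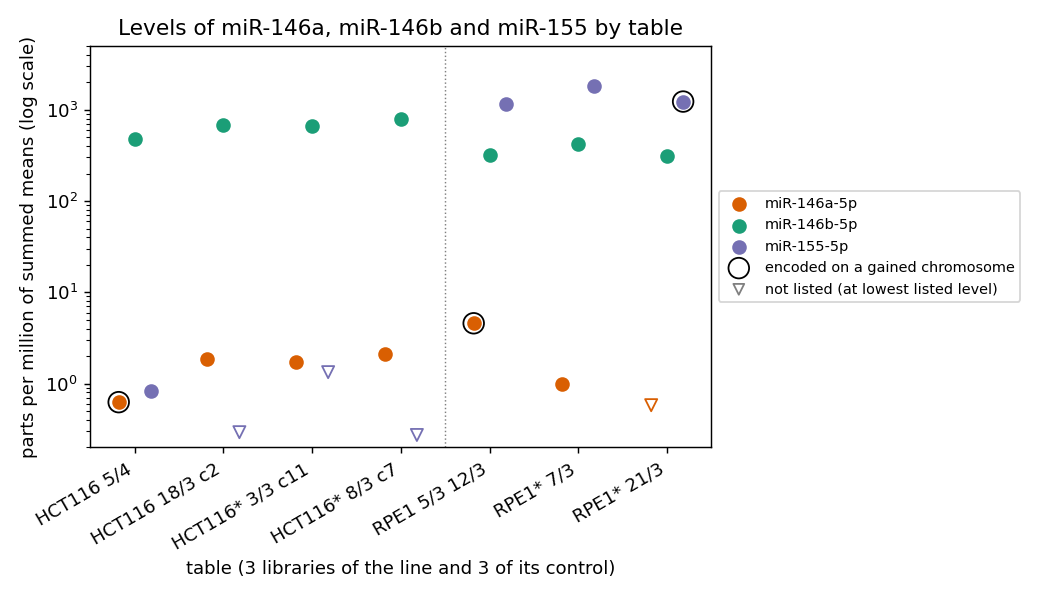
Level of hsa-miR-146a-5p, hsa-miR-146b-5p and hsa-miR-155-5p in each of the 7 tables, in ppm of the table's summed means on a log axis; each point is 1 pooled mean over 6 libraries with no error available, circles mark a miRNA encoded on a chromosome gained in that line, and open triangles, which are not measurements, stand at a table's lowest level where the miRNA had no row. miR-155 lies between 1161 and 1809 ppm in the RPE1 tables and at 0.837 ppm in 1 HCT116 table, while miR-146b stays between 310 and 800 ppm throughout.

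**Figure D2:**
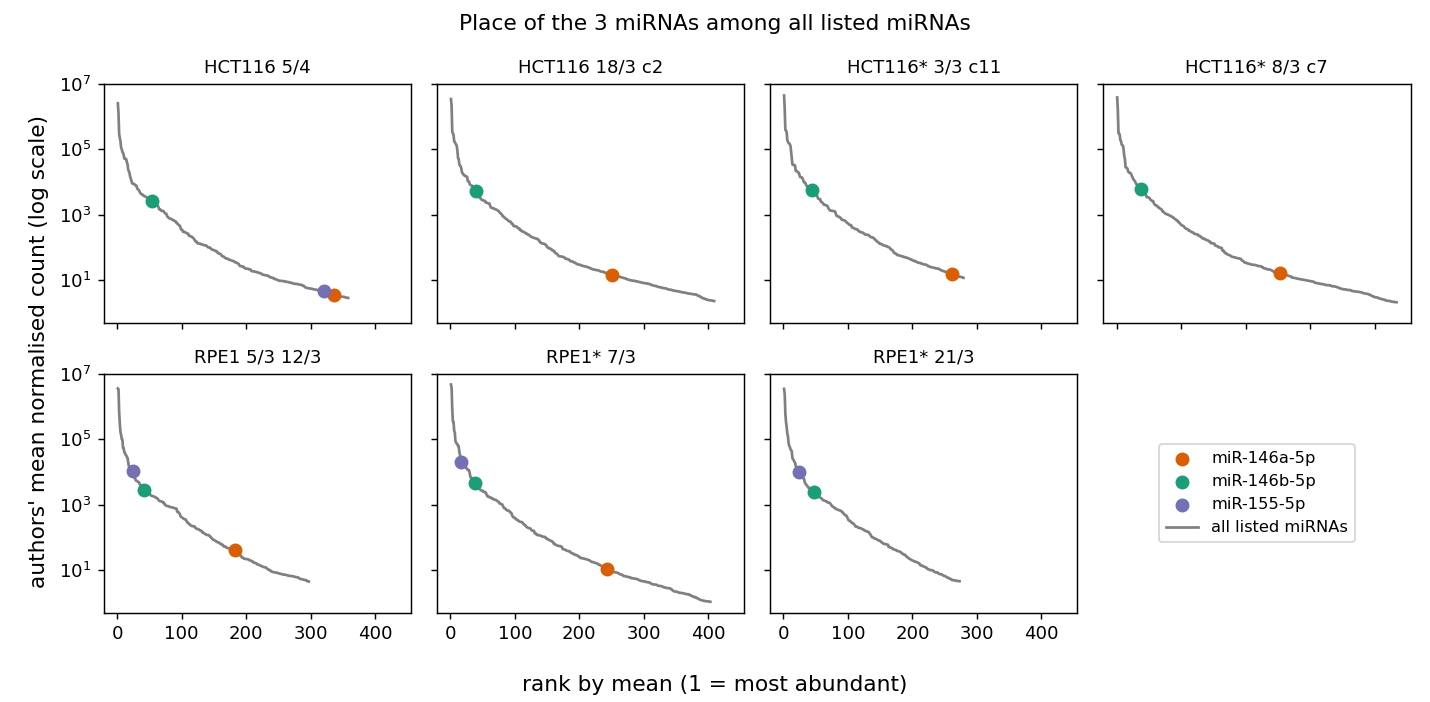
Deposited mean normalised count (log axis) against rank for all miRNAs of each table (grey line), with the 3 miRNAs as points. miR-146b sits at places 38 to 54 in every panel, miR-155 at places 17 to 24 in the RPE1 panels, and miR-146a in the flat lower part of the curves.

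Ratios taken within a table do not depend on how tables are scaled. hsa-miR-146a-5p came to 1.43% of hsa-miR-146b-5p in the table of RPE1 5/3 12/3. It came to 0.277% in that of HCT116 18/3 c2, 0.264% in that of HCT116* 3/3 c11, 0.263% in that of HCT116* 8/3 c7 and 0.234% in that of RPE1* 7/3, and to 0.131% in that of HCT116 5/4. So 4 tables lay between 0.234 and 0.277%, but 3 of these share the HCT116* libraries in their means and are not independent. Of the others, RPE1 5/3 12/3 lay above and HCT116 5/4 below, and the ratio in RPE1 5/3 12/3 was 6.11 times that in RPE1* 7/3. The forms differ at G18A, U21C and in length, so a small share of miR-146b reads counted as miR-146a would move the miR-146a value, and this was not tested. Even at its highest, miR-146a left miR-146b 70.1 times more abundant.

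hsa-miR-155-5p was 3.62 times hsa-miR-146b-5p in the table of RPE1 5/3 12/3, 4.29 times in RPE1* 7/3 and 3.96 times in RPE1* 21/3. In the table of HCT116 5/4 the order was turned round, with miR-146b 573 times miR-155. All 3 RPE1 tables thus had miR-155 above miR-146b, and whether their ratios differ was not tested. The 3 miRNAs together made up 0.0481 to 0.0802% of the summed means in HCT116 tables and 0.149 to 0.223% in RPE1 tables.

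**Figure D3:**
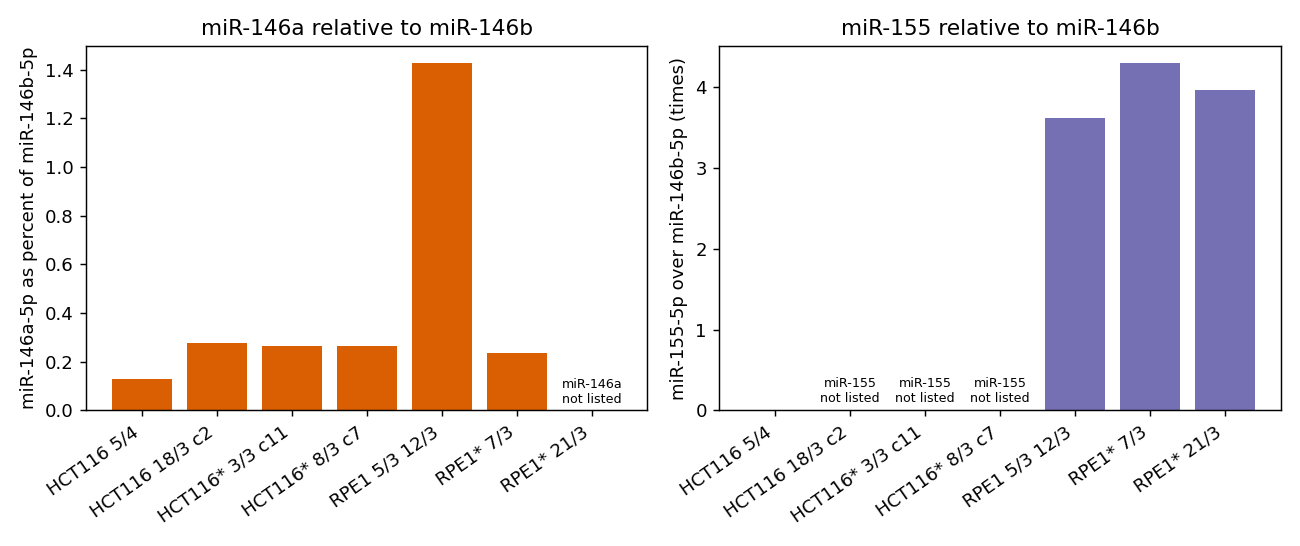
Left, hsa-miR-146a-5p as a percent of hsa-miR-146b-5p; right, hsa-miR-155-5p over hsa-miR-146b-5p in times; each bar is 1 table and starts at 0, and a table where the miRNA had no row has no bar. The left bars lie between 0.131 and 0.277% except for RPE1 5/3 12/3 at 1.43%, and the right bars of the RPE1 tables lie between 3.62 and 4.29, while that of HCT116 5/4 is too low to be seen.

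Between cell types, hsa-miR-155-5p was 1639 times higher in RPE1 than in HCT116 tables (log2 difference of mean log2 ppm 10.7, over 3 RPE1 tables and the 1 HCT116 table with a row). The size of this fold rests on that 1 low mean, and it was 2506 to 3615 times under the other scalings and with missing rows at the lowest mean of their table. Of the 353 miRNAs with rows in both cell types, 229 (64.9%) differed over 2-fold, 39 of them higher in RPE1 tables, and none of these lay above hsa-miR-155-5p. On the other side, hsa-miR-200a-5p, a colon epithelium marker, was further from 0, at -11.8. On the ppm scale the median of all 353 differences was -1.14, and their 5th to 95th percentiles ran from -4.18 to 2.50, so a miRNA at 0 was above most others. hsa-miR-146a-5p was 1.47-fold higher in RPE1 tables, with 50 miRNAs further out on that side, and 1.998-fold, 2.51-fold and 3.01-fold higher with the deposited means, the sum without the 10 most abundant miRNAs and median-of-ratios factors. The direction rests on RPE1 5/3 12/3: without that table the log2 difference was -0.55, and with the missing row of RPE1* 21/3 set to that table's lowest mean it was -0.064.

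hsa-miR-146b-5p was 1.85-fold lower in RPE1 tables in ppm (log2 difference -0.89), which is 0.25 above the median of all miRNAs. With tables scaled by the median ratio over the 173 miRNAs that had a mean of at least 10 in every table, its difference was 0.10. Its direction between cell types thus depends on the scale. The median shift over the 205 miRNAs common to all tables was -1.03 by ppm and -0.04 by the median ratio. The median ratio brings such a shift near 0 by design, so these values do not tell which scale is right.

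**Figure D4:**
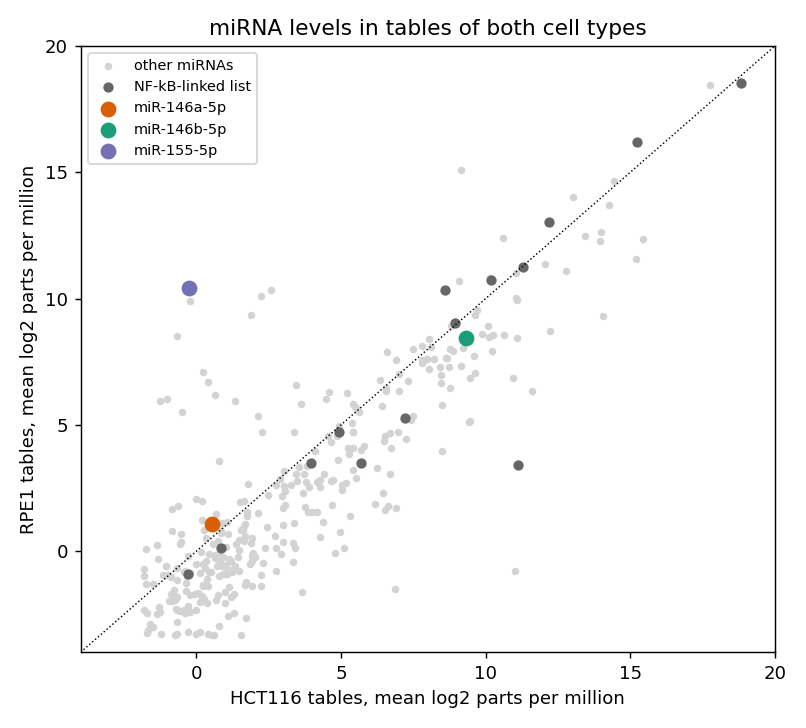
Mean log2 ppm over the RPE1 tables against that over the HCT116 tables for the 353 miRNAs with rows in both, with the 3 miRNAs coloured, the NF-kB-linked list in dark grey and the line of equal level dotted. hsa-miR-155-5p stands furthest above the line, at a log2 difference of 10.7, whereas hsa-miR-146a-5p (0.56) and hsa-miR-146b-5p (-0.89) lie within the cloud.

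For the gained chromosomes, the question is whether a table whose line has extra copies differs from the other tables of its cell type. A level proportional to copy number in the line would raise a pooled mean 1.25 times for 3 copies and 1.5 times for 4, so small shifts are hard to see here. The gain and the control used cannot be told apart, because each of the lines in question had a control that the other tables lacked. For these lines and their controls the authors entered replicate pairs to allow for sequencing batches. Batch may therefore also differ between tables, and its part was not tested.

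In the tables of the lines with extra chromosome 5, hsa-miR-146a-5p lay on opposite sides of the other tables of the cell type. These are pooled means of line and control, so its direction in the lines themselves was not measured. In the table of HCT116 5/4 it was 3.03-fold below the other 3 HCT116 tables (log2 difference -1.60), where 130 of 350 miRNAs (37.1%) differed over 2-fold, 56 of them lower, and 26 lay further out. In the table of RPE1 5/3 12/3 it was 4.65-fold above RPE1* 7/3, the only other RPE1 table with a row (log2 difference 2.22). There 58 of 293 miRNAs (19.8%) differed over 2-fold, 36 of them higher, and 4 lay further out. Many of these were set against both other RPE1 tables, and with every miRNA set against RPE1* 7/3 alone, an alternative chosen after seeing the data, 17 of 291 lay further out. Of the 14 chromosome 5 miRNAs compared for the table of HCT116 5/4, 12 were above 0, against 142 of 287 on other chromosomes. Their medians were 0.69 and -0.02, and hsa-miR-146a-5p was the lowest of the 14. Of the 15 compared for the table of RPE1 5/3 12/3, 12 were above 0, against 127 of 240 on other chromosomes. Their medians were 0.25 and 0.03, with hsa-miR-146a-5p below hsa-miR-1271-5p alone. Against RPE1* 7/3 alone, 8 of 14 were above 0, with a median of 0.61. The median of all 291 was 0.23, so most of these were above 0 too. Among the 14, hsa-miR-146a-5p was at place 3, below hsa-miR-145-5p (3.46) and hsa-miR-143-5p (3.06). The differences of hsa-miR-146a-5p were -1.60 and 2.22, where 4 and 3 copies would give shifts of 0.58 and 0.32 in a pooled mean. The value of -1.60 has the opposite sign and rests on a mean of 3.48, near the lowest mean of its table (2.91). The parts of copy number and of the different controls in these differences were not tested. In the same comparisons hsa-miR-146b-5p, encoded on chromosome 10, was 1.48-fold lower in the table of HCT116 5/4 and 1.13-fold lower in that of RPE1 5/3 12/3.

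hsa-miR-155-5p in the table of RPE1* 21/3 was 0.848 times the mean of the other RPE1 tables (log2 difference -0.24), and the value turns to 0.08 without RPE1* 7/3. In this comparison 42 of 271 miRNAs (15.5%) differed over 2-fold, 27 of them higher, and the median of all was 0.20. The 4 miRNAs of chromosome 21 lay on both sides of 0, at -0.69 for hsa-miR-6724-5p, -0.24 for hsa-miR-155-5p, 0.12 for hsa-let-7c and 0.15 for hsa-miR-99a-5p, with a median of -0.06 against 0.20 for 234 on other chromosomes. The difference of miR-155, -0.24, stands beside a shift of 0.32 that 3 copies would give in a pooled mean. Tables without an extra chromosome 21 differed by more than that shift, with RPE1* 7/3 at 1.56 times RPE1 5/3 12/3. The part of copy number was not tested.

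**Figure D5:**
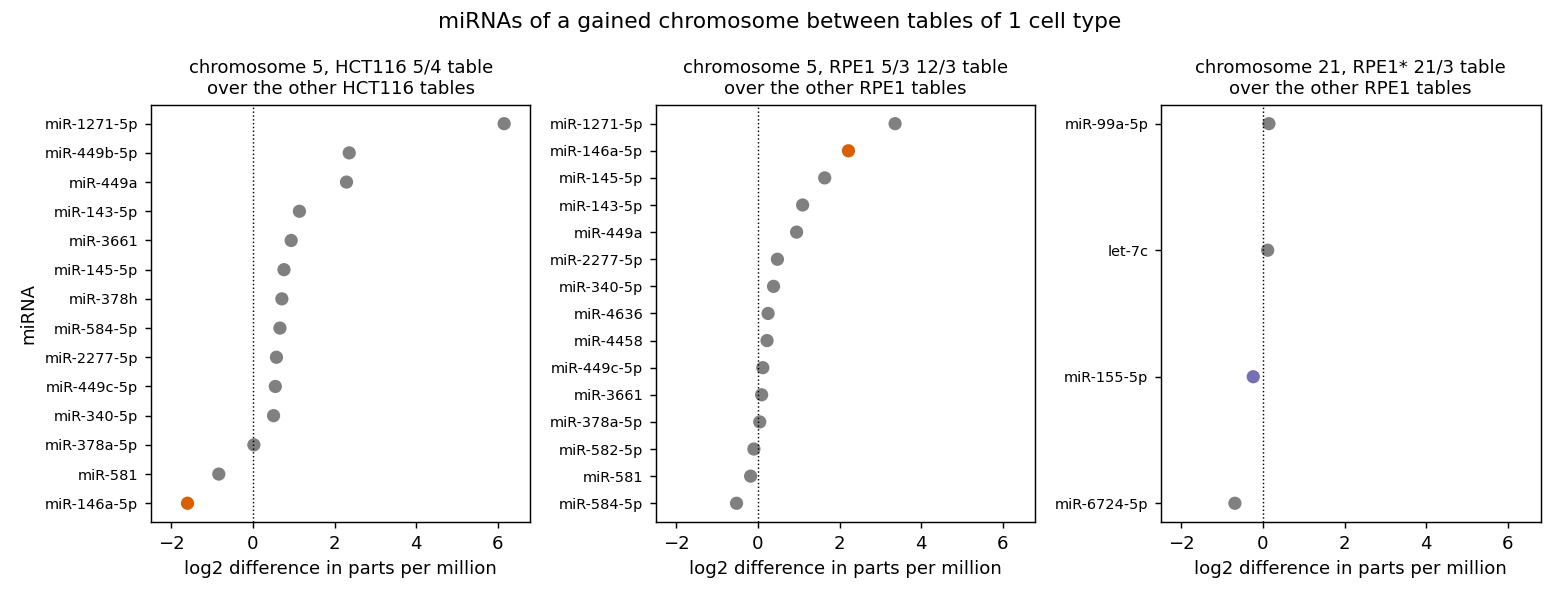
Log2 difference in ppm between the table of a line with a gained chromosome and the other tables of its cell type, for each miRNA of that chromosome with a row in both (hsa-miR-146a-5p in orange, hsa-miR-155-5p in violet, others in grey). hsa-miR-146a-5p is the lowest of 14 in HCT116 5/4 (-1.60), the second highest of 15 in RPE1 5/3 12/3 (2.22, its only reference being RPE1* 7/3, against which hsa-miR-145-5p and hsa-miR-143-5p were higher), and hsa-miR-155-5p lies at -0.24 among 4 in RPE1* 21/3.

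The miRNAs whose levels followed those of a member most closely were taken by Pearson's r of log2 ppm over the tables with a row, among miRNAs with rows in all 7 tables and a mean of at least 100 in 1 of them. For hsa-miR-146b-5p, over 7 tables and 165 miRNAs, they were hsa-miR-1254 (r = 0.99), hsa-miR-132-5p (0.99) and hsa-miR-3150a-5p (0.98). For hsa-miR-146a-5p, over 6 tables and 166 miRNAs, they were hsa-miR-224-5p (0.77), hsa-miR-452-5p (0.62) and hsa-miR-4521 (0.53), so no miRNA followed its pattern closely. hsa-miR-155-5p had rows in 4 tables, under the minimum of 6, and none is given. The tables share control libraries and fall into 2 cell types, so r over so few points is a description.

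The members were set beside 14 other miRNAs known as induced by NF-kB or as acting on its signalling, of which 13 had rows, giving 14 names. Any arm with a row was taken, and all 14 names were 5p arms. The 3p arms of these hairpins had no row, so the values below hold for the 5p arms alone. Which arm carries the link to NF-kB was not considered. The members ran from 0.626 to 1809 ppm, far below the top of this list. The list runs from hsa-miR-21-5p, a widely expressed miRNA at 333360 to 491510 ppm, down to hsa-miR-199a-5p at 0.203 to 1.61 ppm where it had a row. Of its names with a row in a table, 12 to 14 lay above hsa-miR-146a-5p, 6 or 7 above hsa-miR-146b-5p and, in RPE1 tables, 3 to 6 above hsa-miR-155-5p. So miR-155 stood near the middle of the list in 2 RPE1 tables, higher in that of RPE1* 7/3, and below all 14 in the table of HCT116 5/4. Between cell types, 1 name was over 2-fold higher in RPE1 tables, hsa-miR-181b-5p (3.36-fold), and 3 were over 2-fold lower, hsa-miR-9-5p (211-fold), hsa-miR-301a-5p (4.53-fold) and hsa-miR-132-5p (3.80-fold), where over all 353 miRNAs 39 were higher and 190 lower. The other 10 names, hsa-miR-125a-5p, hsa-miR-125b-5p, hsa-let-7i-5p, hsa-miR-31-5p, hsa-miR-221-5p, hsa-miR-222-5p, hsa-miR-29b-1-5p, hsa-miR-29b-2-5p, hsa-miR-199a-5p and hsa-miR-21-5p, lay within 2-fold. The median over the list was -0.25, against -1.14 over all 353 miRNAs. None of them approached the difference of hsa-miR-155-5p.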

How the data were processed

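Small RNA of 36 libraries in 12 groups was sequenced. The authors removed adapters with cutadapt, mapped reads to hg19 and counted mature miRNAs with mirdeep2. They then normalised each table with DESeq2 (version not given in the sources used here). The deposited signal used here is the mean normalised count over the 6 libraries of a table. The remaining 5 columns of each table hold the authors' own comparison of line with control (fold change, its error, statistic and p-values) and were not used. Levels were expressed as ppm of each table's summed means with Python 3.11.15, numpy 2.4.6 and pandas 2.3.3, and drawn with matplotlib 3.10.9. The median-of-ratios factors and the search for the most alike miRNAs were tested on simulated data. The ppm scale was not tested for the recovery of known levels. Depth per library is unknown, so no interval is given, and no test was run since 1 mean per table has no replicate. Other scalings, a minimum mean of 10, leaving out tables and joining the 3 tables on HCT116* were alternatives. Sequences are from RefSeq (GRCh38.p14) and were located in GRCh37 by exact match, with GENCODE annotation. The chromosome was taken for 437 of 509 names. The miRNAs named are the members, the 3 most alike by Pearson's r over the tables, the NF-kB-linked list and those of chromosome 21, with those of chromosome 5 as counts, besides markers of cell types. hsa-miR-1271-5p, hsa-miR-145-5p, hsa-miR-143-5p and the markers named singly were chosen after their values were seen. For miR-146a, r was taken over the 6 tables with a row. The members and lists were chosen with earlier results of these data known.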

Additional observations from a re-analysis of the deposited data

How the results depend on the processing

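Of 55 alternative values over the 7 results, 44 stayed within 1 SD (of log2 ppm among tables of a cell type or, for the ratio of miR-146a to miR-146b, of its log2 over tables), 7 moved further and 4 changed sign. This count says little about how firm a result is, since the SD comes from the same tables. For hsa-miR-146a-5p the SD was 1.05, so 1.12-fold to 3.01-fold counted as within 1 SD of 1.47-fold between cell types. Joining the 3 tables on HCT116* could not move hsa-miR-155-5p, which had no row there. Leaving out single tables could hardly move the median ratio of miR-146a to miR-146b (0.263%). For hsa-miR-146a-5p between cell types (log2 difference 0.56 in ppm), leaving out single tables gave -0.55 (without RPE1 5/3 12/3) to 1.67 (without RPE1* 7/3), and setting the missing row to the table's lowest mean, an alternative chosen after seeing the data, gave -0.064; the deposited means gave 1.00, the sum without the 10 most abundant miRNAs 1.33 and median-of-ratios factors 1.59. For hsa-miR-146b-5p (-0.89), the deposited means gave -0.56, the sum without the 10 most abundant miRNAs -0.17 and median-of-ratios factors 0.10. For hsa-miR-155-5p (10.7), these settings gave 11.4, 11.6 and 11.8, and the lowest listed mean for missing rows 11.3. For hsa-miR-155-5p in RPE1* 21/3 (-0.24), leaving out tables gave -0.56 to 0.082, the latter without RPE1* 7/3. The cause of these changes was not tested. A minimum mean of 10 could not be applied to hsa-miR-155-5p between cell types or to hsa-miR-146a-5p in HCT116 5/4, whose means are under it, and the only reference table of a comparison could not be left out. No paired analysis was possible because the only column used, the mean of a table, pools line and control. Depth per library is unknown, so the low means of miR-146a and of miR-155 in HCT116 5/4 have no error.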
